A study of Mus musculus with 7 samples.

Results

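Described here are 35 genes of the red cell (erythroid) programme outside the globins: transcription regulators, receptors, membrane proteins, the membrane skeleton and haem synthesis. Members were taken as the rows of the deposited gene table whose gene name is on a list of the 35. Of the 35, 34 had a row among the 54532 genes of the table, and Ahsp was not analysed here. The members fall into 7 regulators, 2 receptors, 10 membrane proteins and carbonic anhydrases, 7 membrane skeleton genes, 7 genes of haem synthesis and mitochondrial iron, and the maturation gene Trim10.

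Red cell precursors develop in the bone marrow and, in the mouse, also in the spleen. Erythropoietin acting through its receptor keeps the precursors alive, while GATA1, TAL1 and KLF1 switch on the genes that give the red cell its membrane, its anion and gas exchange proteins and its haem. Beneath the membrane a spectrin net is tied to the anion exchanger by ankyrin and protein 4.2, and its short actin filaments are held by protein 4.1, adducin, dematin and tropomodulin. Haem is built in steps shared between mitochondria and cytosol, starting with an aminolevulinate synthase, of which ALAS2 is the erythroid form and ALAS1 the form of other tissues. Follicular helper T (Tfh) cells, CD4+ T cells that support B cells inside follicles, are not red cell precursors, although dividing T cells also use the transferrin receptor and haem enzymes.

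Bulk RNA sequencing of mouse spleen gave 7 libraries: 4 of genotype Mst1 knockout (KO), titled Mst1∆CD4, and 3 of wild type (WT). All 7 were labelled as sorted Tfh cells of mice given ovalbumin (OVA) into the peritoneum, so the sensitisation is common to both groups. The title form marks a deletion tied to CD4, but neither a Cre driver nor age, sex or strain was given in the sources used here, and no source says whether animals were pooled. The comparison asks how loss of the kinase MST1 altered the transcripts of these cells. Total counts ran from 17051653 to 18375275 in KO libraries and from 16789158 to 17594046 in WT libraries. The kinase is encoded by Stk4, which stood at 287, 296, 302 and 287 CPM (counts relative to library size, with TMM scaling) in KO libraries and at 328, 316 and 336 CPM in WT libraries, a log2 fold change of -0.16 (SE 0.08, edgeR adjusted p = 0.225). A count over a whole gene need not show a deletion of part of it, so Stk4 did not check the labels, and KO and WT below name the libraries as labelled. The labelled cell type was checked against its markers. The summed level of 8 T cell markers was 114 to 227 CPM in KO libraries and 428 to 697 CPM in WT libraries, and all 8 fell. The summed level of 8 Tfh markers was 145 to 255 CPM in KO libraries and 360 to 456 CPM in WT libraries, and 7 of 8 fell. This sum was mostly Cxcr5, the marker not called, with means of 136 CPM in KO libraries and 238 CPM in WT libraries. B cell markers summed to 1462 to 3485 CPM in KO libraries and 4308 to 5682 CPM in WT libraries, above the T cell sum in both groups, so markers of other cells were abundant in libraries labelled as sorted Tfh cells.

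Nearly all members rose in KO libraries. Of the 34 members, 32 were called higher in KO at an adjusted p under 0.05 with edgeR's quasi-likelihood test, against 8.71% of the 15795 genes tested. In the same 32 members every KO library stood above every WT library, against 15.4% of all genes tested. By edgeR 0 members were called lower, against 6.83% of all genes, and the count of lower members was also 0 at an unadjusted p under 0.05, with DESeq2 and with limma-voom. The exceptions were Epb41 and Slc25a37. The median log2 fold change of the members was 3.06, with a range of 0.01 to 3.98, beside a median of -0.0019 over all genes tested. Only 147 of the 15795 genes had a log2 fold change at or above that median, and 17 of them were members, as a median implies for a list of 34. In RNA of a whole population, more cells of a type and more RNA per cell cannot be told apart. All 34 members passed the filter on low counts, and Tmod1 was the one member that passed through the KO libraries alone. Without it, 31 of 33 were called higher.

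Even so these transcripts were a small part of the libraries. Members took 0.209%, 0.293%, 0.322% and 0.382% of all counts in KO replicates 1 to 4, and 0.0893%, 0.0787% and 0.0865% in WT replicates 1 to 3. The groups did not overlap. By summed level the roles differed in how far KO stood above WT. The 10 membrane proteins and carbonic anhydrases summed to 928, 1214, 1417 and 1873 CPM in KO libraries, against 193, 116 and 139 CPM in WT libraries, a ratio of mean sums of 9.09. The 2 receptors summed to 173 to 351 CPM in KO libraries and 78.7 to 92.6 CPM in WT libraries, a ratio of 3.11. The 7 regulators summed to 284 to 425 CPM in KO libraries and 115 to 147 CPM in WT libraries, a ratio of 2.81. For the 7 skeleton genes, whose WT sum is mostly Epb41, the sums were 292 to 529 CPM in KO libraries and 168 to 178 CPM in WT libraries, a ratio of 2.37. Haem synthesis and mitochondrial iron summed to 445 to 730 CPM in KO libraries and 311 to 320 CPM in WT libraries, a ratio of 1.89. Slc25a37 averaged 168 CPM of that WT sum, and the 6 haem enzymes without it had a ratio of 2.84. No role's groups overlapped in the sum, and a sum is set by its most abundant genes.

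Values of single genes below are CPM and are given in the order of the replicate numbers.

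**Figure D1:**
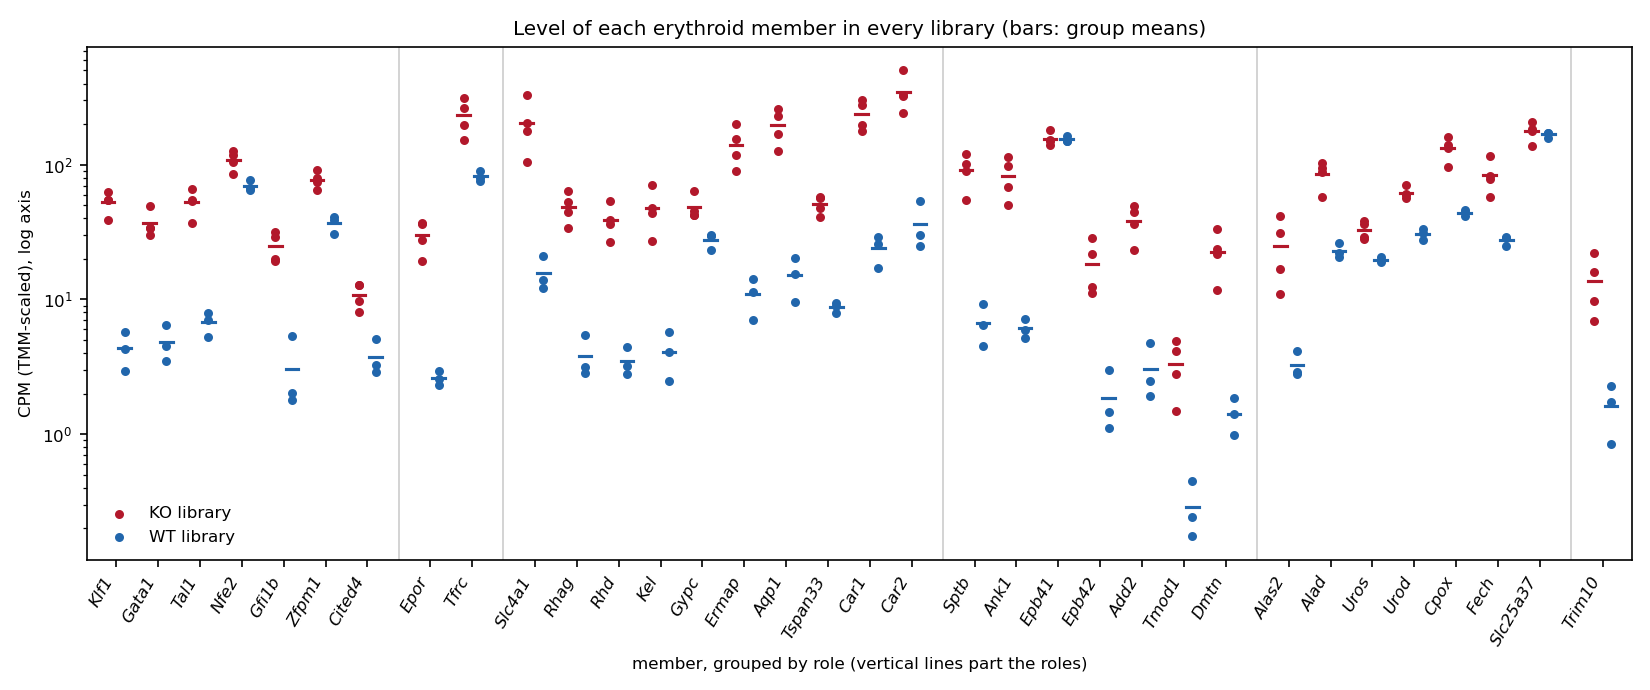
CPM of each of the 34 members in the 4 KO libraries (red, left of each pair) and the 3 WT libraries (blue, right), on a log axis, with bars at the group means and vertical lines between role groups. The red and blue points of Epb41 and Slc25a37 overlap, and in the other 32 members all red points lie above all blue points.

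Among the regulators all 7 rose, with a median log2 fold change of 2.94 and a range of 0.63 to 3.60. Klf1 (ENSMUSG00000054191, chr8:84901928-84905291, plus strand), the factor that activates adult globin and membrane genes, had 38.9, 55.1, 54.2 and 62.4 CPM in KO libraries, against 5.73, 2.96 and 4.30 CPM in WT libraries. The lowest KO library stood far above the highest WT library, and the log2 fold change of 3.60 (SE 0.25, edgeR adjusted p = 0.000267) was the largest of the regulators. Tal1 (ENSMUSG00000028717, chr4:115056426-115071755, plus strand), the helix-loop-helix partner of GATA1, had 37.2, 54.4, 53.4 and 66.2 CPM in KO libraries, against 7.87, 5.28 and 7.07 CPM in WT libraries. Its log2 fold change was 2.97 (SE 0.23, edgeR adjusted p = 0.000319). Gata1 (ENSMUSG00000031162, chrX:7959260-7978071, minus strand), the master regulator of the lineage, had 30.3, 33.7, 33.6 and 49.3 CPM in KO libraries, against 6.41, 4.47 and 3.51 CPM in WT libraries. Here KO replicate 4 stood above the other 3 KO libraries, and the groups did not overlap (log2 fold change 2.94, SE 0.25, edgeR adjusted p = 0.000484).

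Gfi1b, a zinc finger repressor needed in red cell and platelet precursors, rose with a log2 fold change of 3.03 (SE 0.41, edgeR adjusted p = 0.00345). Its levels were 19.3, 19.9, 31.4 and 28.9 CPM in KO libraries and 5.31, 1.80 and 2.04 CPM in WT libraries, so that replicates 3 and 4 led the KO group and replicate 1 led the WT group. The other regulators rose less. Zfpm1, which encodes the GATA1 cofactor FOG1, had 64.4, 73.7, 90.7 and 80.2 CPM in KO libraries, against 41.0, 30.6 and 38.7 CPM in WT libraries, a log2 fold change of 1.07 (SE 0.15, edgeR adjusted p = 0.00268). Cited4, a transcriptional co-regulator of the CITED family, rose by 1.53 on the log2 scale (SE 0.26, edgeR adjusted p = 0.00725), with 8.10 to 12.9 CPM in KO libraries and 2.88 to 5.11 CPM in WT libraries. Nfe2, a basic leucine zipper factor of red cells and megakaryocytes, had the largest p of the regulators. It had 85.6, 118, 105 and 125 CPM in KO libraries, against 77.3, 64.7 and 67.5 CPM in WT libraries. The lowest KO library was only a little above the highest WT library. Its log2 fold change was 0.63 (SE 0.14, edgeR adjusted p = 0.0173), and the adjusted p was 0.0513 without KO replicate 2, 0.0711 without WT replicate 2 and 0.0683 without WT replicate 3.

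By length-scaled level (FPKM), Nfe2 averaged 35.9 ± 5.63 in KO libraries and 23.1 ± 2.10 in WT libraries, and Zfpm1 averaged 21.8 ± 3.11 in KO libraries and 10.4 ± 1.53 in WT libraries (SD, n = 4 KO and 3 WT). Both were thus already well detected in WT libraries. Gata1, by contrast, averaged 14.9 ± 3.37 FPKM in KO libraries and 1.95 ± 0.590 FPKM in WT libraries, and Tal1 averaged 11.9 ± 2.64 FPKM in KO libraries and 1.52 ± 0.296 FPKM in WT libraries.

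GATA1 binds the letters GATA, often near letters bound by TAL1, and both factors were among the regulators that rose, so the promoters of the members were read for such letters. The promoters are RefSeq's on GRCm38.p6, 250 bases before to 50 bases after a gene's start, and 25 of the 34 members had one. Motifs were sought on both strands. A composite of CTG, 9 bases of any kind and GATAA was found in 5 of the 25, which is 20.0%, and in 0.742% of all 20481 promoters or 0.591% of the 10651 promoters of genes tested. GATAA alone, which the composite contains, was in 12 members (48.0%), in 23.5% of all promoters and in 16.6% of those of genes tested. AGATAA, which contains GATAA, was in 8 members (32.0%), in 10.2% of all and in 6.78% of tested promoters. The letters CCNCNCCC, which KLF1 can bind, were in 18 members (72.0%), in 53.7% of all and in 66.8% of tested promoters, so the members' share lay near that of the genes tested. CACCC was in 21 members (84.0%), in 58.1% of all and in 62.6% of tested promoters. TGANTCA, a core of the sites of NFE2, was in 2 members (8.0%), in 7.34% of all and in 5.03% of tested promoters. The E-box CANNTG was in 18 members (72.0%), in 70.0% of all and in 64.2% of tested promoters. These are counts of letters, not of bound sites.

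The 5 members with the composite are shown, with Alas2 as an AGATAA example from the haem group. Each sequence runs 5′ to 3′ on the gene's strand, ends at the gene's start or, where the deposited table starts the gene over 30 bases further upstream, just before that start, and has the composite in capitals (AGATAA for Alas2). A match on the other strand therefore reads from TTATC. The stretches on GRCm38.p6 are chr2:28621983-28622232 (minus strand) for Gfi1b, chr17:40810899-40811148 (plus) for Rhag, chr6:41704326-41704575 (minus) for Kel, chr4:119189996-119190245 (minus) for Ermap, chr2:121037073-121037127 (minus) for Epb42 and chrX:150547167-150547374 (plus) for Alas2. Counted from the RefSeq start, the matches begin at -131, -31, -67, -67, -226 and -86 in that order.
Gfi1b: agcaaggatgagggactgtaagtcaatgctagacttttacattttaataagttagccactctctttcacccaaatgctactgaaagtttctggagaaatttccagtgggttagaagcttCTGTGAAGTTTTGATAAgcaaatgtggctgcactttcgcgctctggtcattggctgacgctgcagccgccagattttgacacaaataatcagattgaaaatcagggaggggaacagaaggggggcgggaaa
Rhag: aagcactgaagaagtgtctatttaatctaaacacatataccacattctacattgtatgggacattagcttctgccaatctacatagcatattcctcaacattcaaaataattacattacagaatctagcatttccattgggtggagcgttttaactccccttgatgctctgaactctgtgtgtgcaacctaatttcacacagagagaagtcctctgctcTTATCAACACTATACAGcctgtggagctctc
Kel: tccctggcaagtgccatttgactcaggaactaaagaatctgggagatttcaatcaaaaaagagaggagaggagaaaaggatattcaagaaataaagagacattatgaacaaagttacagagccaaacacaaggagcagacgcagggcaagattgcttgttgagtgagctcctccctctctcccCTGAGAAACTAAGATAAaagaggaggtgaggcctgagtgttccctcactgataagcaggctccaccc
Ermap: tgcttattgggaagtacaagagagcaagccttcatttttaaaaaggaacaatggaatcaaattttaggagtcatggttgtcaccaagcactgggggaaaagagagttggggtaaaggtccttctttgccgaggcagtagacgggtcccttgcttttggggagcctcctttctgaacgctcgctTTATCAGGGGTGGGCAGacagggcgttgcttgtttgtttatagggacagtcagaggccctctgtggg
Epb42: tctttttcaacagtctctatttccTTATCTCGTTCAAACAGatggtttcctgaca
Alas2: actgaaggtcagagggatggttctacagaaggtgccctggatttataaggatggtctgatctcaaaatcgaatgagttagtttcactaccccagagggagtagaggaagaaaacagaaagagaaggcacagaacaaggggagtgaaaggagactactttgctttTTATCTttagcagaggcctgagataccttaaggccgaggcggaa

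Of these 6 genes, Rhag, Kel and Ermap had log2 fold changes of 3.67, 3.53 and 3.68, close to each other, while Gfi1b, Epb42 and Alas2 had 3.03, 3.32 and 2.94.

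Both receptors rose. Epor (ENSMUSG00000006235, chr9:21958897-21963506, minus strand), the erythropoietin receptor, had 19.3, 27.7, 36.3 and 36.7 CPM in KO libraries, against 2.93, 2.32 and 2.55 CPM in WT libraries. The WT libraries lay close together and far below KO replicate 1, the lowest KO library. The log2 fold change was 3.53 (SE 0.26, edgeR adjusted p = 0.000289). Tfrc, the transferrin receptor that brings iron into red cell precursors and also into dividing cells of other kinds, had 154, 262, 198 and 315 CPM in KO libraries, against 75.8, 79.2 and 90.1 CPM in WT libraries. Its rise was smaller, 1.51 on the log2 scale (SE 0.23, edgeR adjusted p = 0.00576).

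All 10 membrane proteins and carbonic anhydrases rose, with a median log2 fold change of 3.51 and a range of 0.81 to 3.70. Tspan33 (ENSMUSG00000001763, chr6:29694222-29718559, plus strand), a tetraspanin of red cell precursors, had the smallest p of all members. It had 41.0, 47.8, 56.8 and 57.3 CPM in KO libraries, against 9.33, 7.95 and 8.99 CPM in WT libraries. Both groups were tight and far apart (log2 fold change 2.53, SE 0.15, edgeR adjusted p = 8.22e-05). The blood group gene Rhd (ENSMUSG00000028825, chr4:134864536-134896172, plus strand) had 26.7, 38.7, 36.5 and 53.9 CPM in KO libraries, against 4.45, 2.79 and 3.22 CPM in WT libraries (log2 fold change 3.48, SE 0.28, edgeR adjusted p = 0.000394). Its partner Rhag, the Rh-associated glycoprotein that conducts ammonium, had 33.6, 44.5, 52.5 and 63.4 CPM in KO libraries, against 5.43, 2.84 and 3.17 CPM in WT libraries (log2 fold change 3.67, SE 0.30, edgeR adjusted p = 0.000521). The fold changes of these Rh complex genes lay within 1 SE of each other.

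Car1, the carbonic anhydrase most typical of red cells, had 195, 178, 301 and 276 CPM in KO libraries, against 29.0, 17.0 and 25.9 CPM in WT libraries. Replicates 3 and 4 led the KO group, and the groups did not overlap (log2 fold change 3.31, SE 0.27, edgeR adjusted p = 0.000521). Car2, a faster carbonic anhydrase that many cell types also make, rose by 3.27 on the log2 scale (SE 0.36, edgeR adjusted p = 0.00225), with 240 to 501 CPM in KO libraries and 24.7 to 53.3 CPM in WT libraries. Slc4a1, the anion exchanger band 3, had the largest log2 fold change of this group, 3.70 (SE 0.44, edgeR adjusted p = 0.00333), with 204 ± 93.5 CPM in KO libraries and 15.7 ± 4.71 CPM in WT libraries (SD, n = 4 KO and 3 WT). The water channel Aqp1 rose by 3.69 on the log2 scale (SE 0.36), with 126 to 258 CPM in KO libraries and 9.58 to 20.4 CPM in WT libraries. The Scianna blood group gene Ermap rose by 3.68 (SE 0.36), with 89.1 to 199 CPM in KO libraries and 7.08 to 14.2 CPM in WT libraries. The Kell blood group gene Kel rose by 3.53 (SE 0.41), with 27.1 to 71.0 CPM in KO libraries and 2.50 to 5.73 CPM in WT libraries. All 3 had a KO minimum above the WT maximum. Gypc, the glycophorin that anchors protein 4.1, was the exception in size and had the largest p of the group. It had 45.1, 42.1, 42.5 and 63.5 CPM in KO libraries, against 29.8, 29.5 and 23.2 CPM in WT libraries. KO replicate 4 stood apart from the other 3, which lay close together and still above the WT libraries. Its log2 fold change was 0.81 (SE 0.17, edgeR adjusted p = 0.0157), and the adjusted p was 0.0648 without WT replicate 3.

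**Figure D2:**
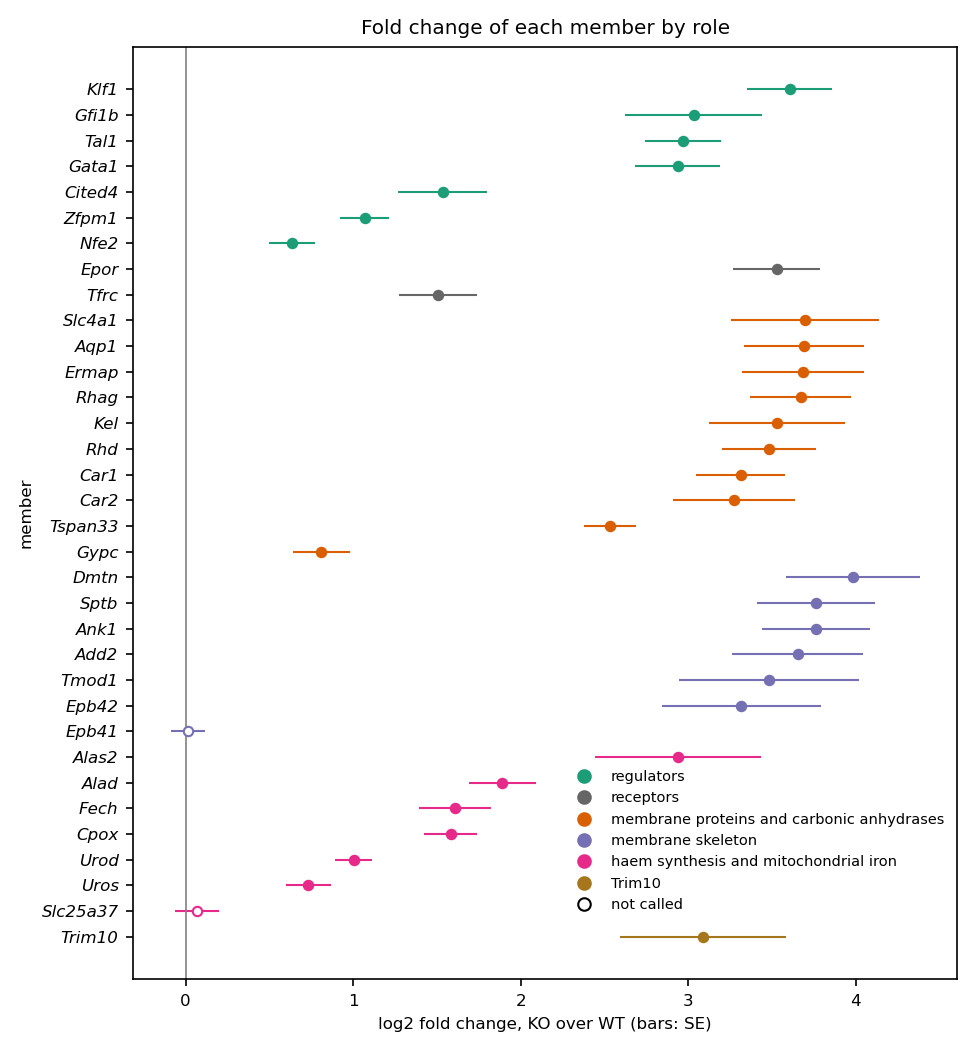
Log2 fold change, KO over WT, of each member (points, bars are SE), in role groups from the regulators at the top to Trim10 at the bottom; open points were not called. Membrane proteins and skeleton genes lie mostly between 3 and 4, haem genes mostly between 0.73 and 1.89, and Epb41 and Slc25a37 lie next to 0.

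In the membrane skeleton 6 of 7 genes rose, with a median log2 fold change of 3.65. The 6 include Tmod1, which passed the filter through the KO libraries alone. Dmtn (ENSMUSG00000022099, chr14:70601263-70636048, minus strand), which encodes the actin-bundling protein dematin, had 11.8, 23.7, 21.6 and 33.0 CPM in KO libraries, against 1.40, 0.987 and 1.87 CPM in WT libraries. Its log2 fold change from counts was the largest of all members, 3.98 (SE 0.40, edgeR adjusted p = 0.00104). With limma on log2(FPKM + 1), a scale that shrinks low genes, it was 1.48, and the median of the members was 1.97. Ank1 (ENSMUSG00000031543, chr8:22974844-23150497, plus strand), the ankyrin that ties spectrin to band 3, had 50.3, 67.8, 98.0 and 114 CPM in KO libraries, against 7.20, 5.17 and 5.88 CPM in WT libraries (log2 fold change 3.76, SE 0.32, edgeR adjusted p = 0.000640). Sptb, the beta chain of erythroid spectrin, had 54.5, 101, 88.9 and 120 CPM in KO libraries, against 9.21, 4.47 and 6.45 CPM in WT libraries (log2 fold change 3.76, SE 0.35, edgeR adjusted p = 0.00115). Add2, the beta adducin of red cells and brain, had 23.1, 36.2, 44.7 and 49.6 CPM in KO libraries, against 4.76, 1.92 and 2.49 CPM in WT libraries (log2 fold change 3.65, SE 0.39, edgeR adjusted p = 0.00162). In none of these genes did a KO library come near the WT range.

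Epb42, which encodes protein 4.2, had 11.2, 21.6, 12.4 and 28.6 CPM in KO libraries, against 2.99, 1.10 and 1.47 CPM in WT libraries. It rose by 3.32 on the log2 scale (SE 0.48, edgeR adjusted p = 0.00439). Tmod1, the tropomodulin that caps the pointed end of actin filaments, had a log2 fold change of 3.48 (SE 0.54). It passed the filter through the KO libraries alone, so this value is a description. Tmod1 was barely detected, with 1.48, 4.12, 2.78 and 4.93 CPM in KO libraries and 0.244, 0.174 and 0.453 CPM in WT libraries, where it had 4, 3 and 8 counts. The genes Sptb, Tmod1, Alas2 and Uros overlap a gene on the opposite strand that had at least 10% of their mean count, and with the strand setting of the counting not given, reads of such pairs cannot be told apart. Epb41 (ENSMUSG00000028906, chr4:131923413-132075321, minus strand), which encodes protein 4.1, had 140, 152, 151 and 179 CPM in KO libraries, against 149, 164 and 149 CPM in WT libraries. The groups overlapped, with a log2 fold change of 0.01 (SE 0.10, edgeR adjusted p = 0.940) and a 95% interval of -0.22 to 0.25. Its level of 9.66 ± 0.988 FPKM in KO libraries and 9.56 ± 0.566 FPKM in WT libraries was, in WT, above that of every other skeleton member.

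Of the 7 genes of haem synthesis and mitochondrial iron 6 rose, all of them enzymes of the pathway, with a median log2 fold change of 1.58 over the 7. The range of the 6 enzymes was 0.73 to 2.94. In the order of the pathway, the log2 fold changes were 2.94 for Alas2, 1.89 for Alad, 0.73 for Uros, 1.00 for Urod, 1.58 for Cpox and 1.61 for Fech, highest for the first enzyme and lowest for the uroporphyrinogen steps. Differences between members were not tested. Alas2 (ENSMUSG00000025270, chrX:150547375-150570638, plus strand), the erythroid first enzyme, had 10.9, 31.0, 16.9 and 41.6 CPM in KO libraries, against 4.15, 2.79 and 2.88 CPM in WT libraries. The KO libraries spread widely, and the SE was 0.50 (edgeR adjusted p = 0.00936). Cpox, coproporphyrinogen oxidase, had 96.7, 139, 133 and 159 CPM in KO libraries, against 44.4, 46.0 and 41.9 CPM in WT libraries (SE 0.16, edgeR adjusted p = 0.000808). Alad, which joins the precursors into porphobilinogen, had 57.6, 87.6, 94.2 and 102 CPM in KO libraries, against 20.8, 26.1 and 22.1 CPM in WT libraries (SE 0.20, edgeR adjusted p = 0.00109).

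Urod, uroporphyrinogen decarboxylase, had 56.6, 60.4, 59.0 and 70.2 CPM in KO libraries, against 27.8, 33.3 and 31.0 CPM in WT libraries (SE 0.11, edgeR adjusted p = 0.00129). Fech, which inserts the iron, had 57.3, 82.6, 78.8 and 115 CPM in KO libraries, against 28.9, 24.9 and 28.5 CPM in WT libraries (SE 0.22, edgeR adjusted p = 0.00287). Neither gene's groups overlapped. Uros, uroporphyrinogen synthase, had 28.0 to 38.0 CPM in KO libraries and 19.1 to 20.5 CPM in WT libraries (SE 0.14, edgeR adjusted p = 0.00933). Slc25a37 (ENSMUSG00000034248, chr14:69241848-69285112, minus strand), the mitochondrial iron importer mitoferrin 1, was not called. It had 138, 185, 178 and 206 CPM in KO libraries, against 173, 158 and 173 CPM in WT libraries. KO replicate 1 lay below all WT libraries and the other KO libraries above them, and the log2 fold change was 0.07 (SE 0.13, edgeR adjusted p = 0.753, 95% interval -0.23 to 0.37). Trim10, a RING finger protein needed for late red cell differentiation, rose by 3.09 on the log2 scale (SE 0.50, edgeR adjusted p = 0.00682), with 6.92, 16.0, 9.74 and 22.2 CPM in KO libraries and 2.26, 1.74 and 0.849 CPM in WT libraries.

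By length-scaled level the order of the members differed between the groups. In KO libraries Car1 led with 189 ± 47.3 FPKM, followed by Car2 with 142 ± 44.1, Aqp1 with 73.7 ± 22.3, Alad with 45.2 ± 10.2 and Slc4a1 with 41.1 ± 18.7 FPKM (SD, n = 4). The spreads of Car1 and Car2 overlapped, as did those of Alad and Slc4a1. In WT libraries Slc25a37 led with 27.6 ± 1.35 FPKM, followed by Nfe2 with 23.1 ± 2.10, Car1 with 19.0 ± 4.89 and Car2 with 14.7 ± 6.15 FPKM (SD, n = 3). Tmod1 was lowest in both, with 0.834 ± 0.377 FPKM in KO libraries and 0.0729 ± 0.0366 FPKM in WT libraries. The alpha globin gene Hba-a1 had 214 ± 86.4 FPKM in KO libraries and 35.4 ± 6.84 FPKM in WT libraries, so in KO libraries it stood within the spread of Car1.

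**Figure D3:**
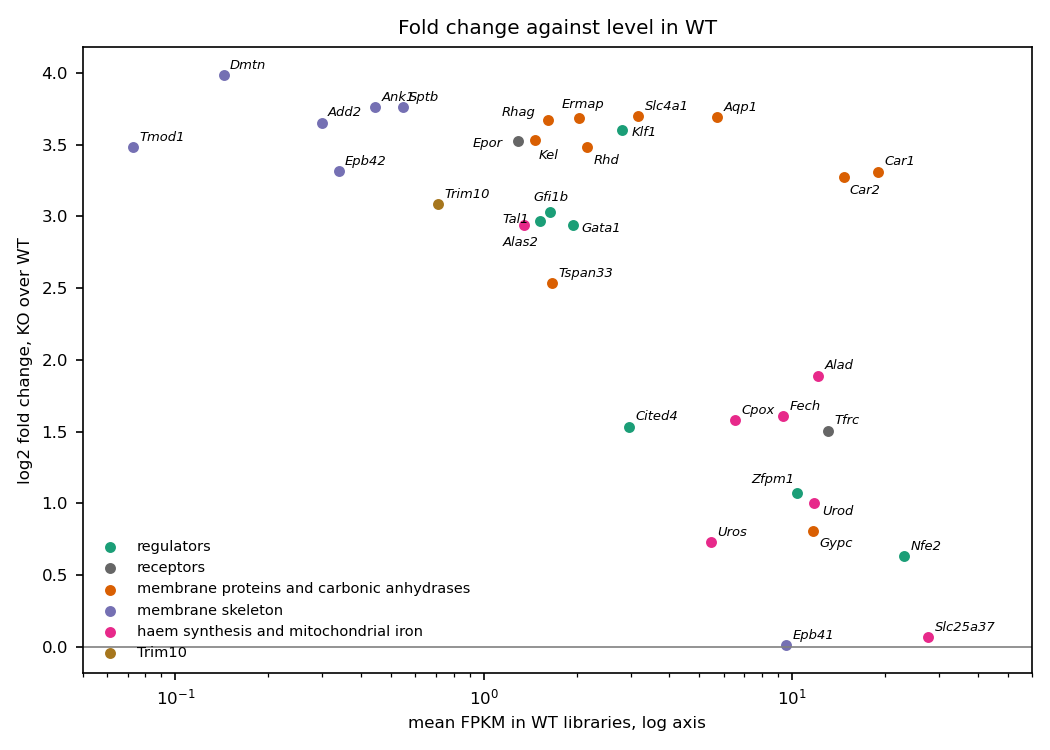
Mean FPKM of each member in the 3 WT libraries (x, log axis) against its log2 fold change, KO over WT (y), coloured by role. Members below about 1 FPKM in WT all had log2 fold changes above 3, while those near 10 FPKM and above ranged from 0.01 for Epb41 to 3.31 for Car1.

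Across the 34 members the WT level and the log2 fold change had a Spearman rho of -0.654, and the KO level and the log2 fold change one of -0.158. The WT level is part of the fold change itself, and genes are not independent, so this is a description only. Car1 and Car2, at 19.0 and 14.7 FPKM in WT libraries, had log2 fold changes of 3.31 and 3.27, whereas Slc25a37, Nfe2 and Urod, at 27.6, 23.1 and 11.7 FPKM there, had 0.07, 0.63 and 1.00.

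Ratios of a member to a paralog or partner in the same library need no scaling between libraries. Of 8 tested, 7 are described. The pair of Tmod1, which passed the filter through the KO libraries alone, is given as a description, and 4 of the other 6 differed between the groups in an exact permutation test, two-sided and over all 35 ways to part the libraries (p = 0.0286 each, the smallest the 7 libraries allow, and 0.0381 after Benjamini-Hochberg adjustment over the 8). Erythroid Alas2 relative to Alas1, the form of other tissues, had log2 ratios of -2.49, -1.55, -2.14 and -1.57 in KO libraries, against -4.26, -4.87 and -5.06 in WT libraries, a difference of 2.79. Alas1 itself was not called (log2 fold change 0.02, SE 0.22, edgeR adjusted p = 0.965). The erythroid form Add2 likewise gained on the widely made Add1, with a difference of 3.81, and Epb42 gained on Epb41 by 3.30. The ratio of Tmod1 to the widely made Tmod3 differed by 3.74.

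Gata1 relative to Gata2, the factor it replaces as precursors mature, had log2 ratios of 0.512, 0.221, 0.278 and -0.160 in KO libraries, against -1.32, -1.16 and -1.92 in WT libraries. The KO ratio was lowest in replicate 4, where the summed level of mast cell and basophil markers, cells that also use GATA2, was highest (774 CPM, against 277 to 300 CPM in the other 3 KO libraries and 190 to 288 CPM in WT libraries). The part of those markers in the ratio was not tested. Car2 relative to Car1 differed by -0.0128 (exact permutation p = 0.943) and Slc25a37 relative to its paralog Slc25a28 by -0.0583 (exact permutation p = 0.714). The per-library Car2 ratios ran from 0.0921 to 0.875 in KO libraries and from 0.211 to 0.879 in WT libraries.

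**Figure D4:**
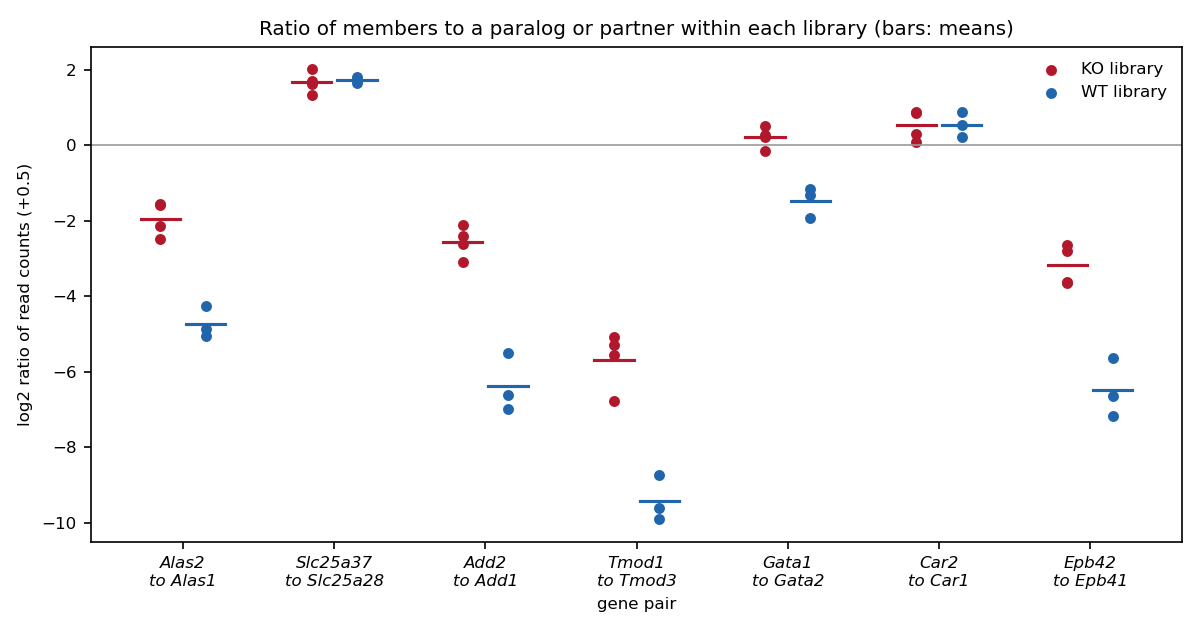
Log2 ratio of the read counts of 2 genes within each library for 7 pairs, with KO libraries in red on the left and WT libraries in blue on the right of each pair and bars at the means. KO and WT points are apart for 5 pairs, all higher in KO, and overlap for Slc25a37 to Slc25a28 and for Car2 to Car1.

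The 4 KO libraries were not alike in these genes. KO replicate 4 was the highest of the 4 in 29 of 34 members and KO replicate 1 the lowest in 32. The ratio of KO replicate 4 to KO replicate 1 was above 1 beyond counting error in all 34, from 1.24 for Urod to 3.80 for Alas2. Over 15685 genes these libraries also differed, with a chi-square per gene of 55.3, where counting error alone gives about 1. The shares of all genes with such orders or ratios were not counted, so these counts are not shown to be particular to the members. KO replicates 2 and 3, which held 0.293% and 0.322% of their counts in members, differed in which members were high. In KO replicate 3 relative to KO replicate 2, 12 members were higher beyond counting error, 9 were lower and 13 had a 95% interval that included no difference. Over 15684 genes the chi-square per gene between these libraries was 23.8, so genes outside the members differed too. The share of all genes beyond counting error was not counted here either. Higher in KO replicate 3 were Car1 with a ratio of 1.69, Gfi1b with 1.58, Ank1 with 1.44, Aqp1 with 1.38 and Epor with 1.31. Lower in KO replicate 3 were Alas2 with a ratio of 0.544, Epb42 with 0.572, Trim10 with 0.608, Tmod1 with 0.676 and Tfrc with 0.754. Klf1, Gata1 and Tal1 differed little between these libraries, with ratios of 0.984, 0.998 and 0.981.

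The alpha globin gene Hba-a1 had 99.7, 217, 132 and 253 CPM in KO replicates 1 to 4, with replicate 3 below replicate 2. By rank alone 20 of the 34 members shared this order, but only 9 members were lower in replicate 3 than in replicate 2 beyond counting error. The ratios between KO libraries compare single libraries, not conditions, and their intervals cover counting error only. Among the WT libraries, replicate 1 was the highest in 26 members and replicate 2 the lowest in 24. Such orders were not counted over all genes.

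**Figure D5:**
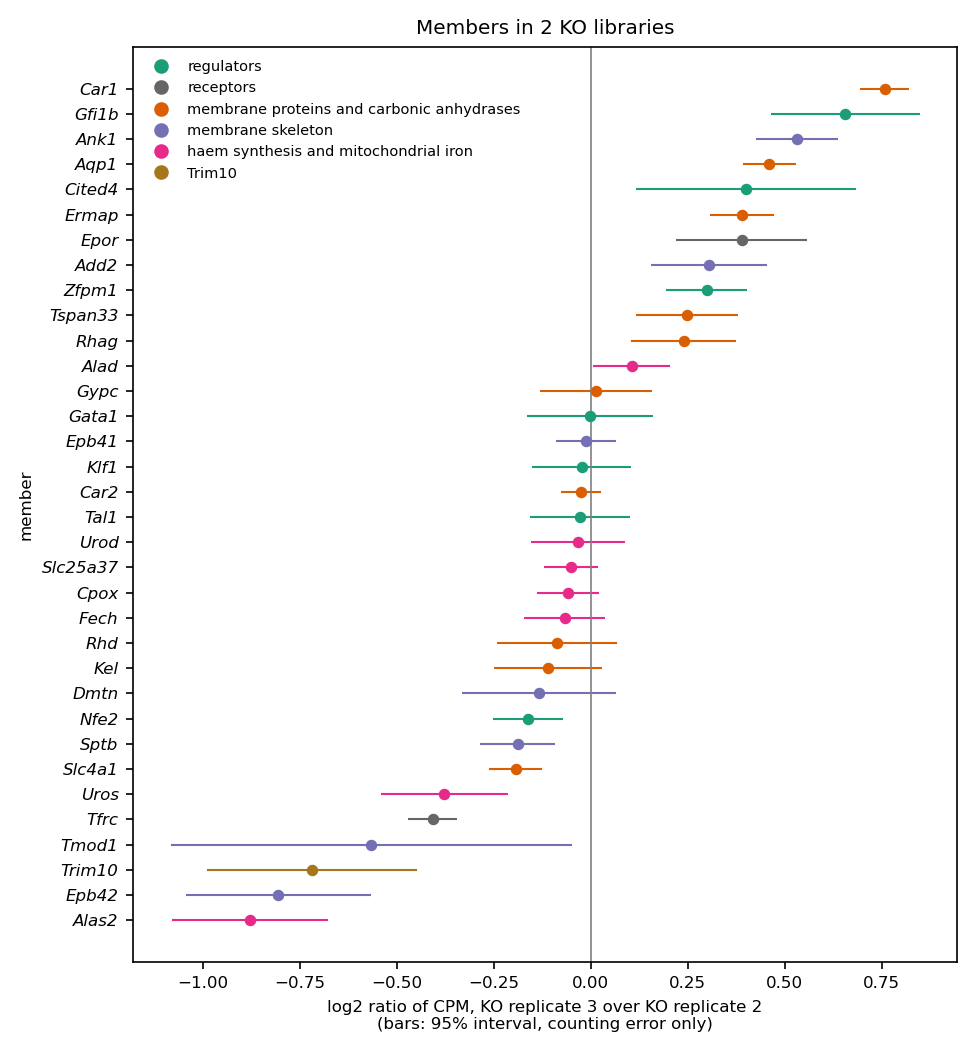
Log2 ratio of CPM in KO replicate 3 over KO replicate 2 for each member, with 95% intervals for counting error only, sorted by ratio and coloured by role. The intervals of 12 members lie above 0, led by Car1 and Gfi1b, and those of 9 lie below 0, with Alas2 and Epb42 lowest.

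Other genes of the same pathways rose in part. Of 20 further erythroid regulators and signalling genes, 6 rose and 0 fell by edgeR, with a median log2 fold change of 0.16. DESeq2 and limma-voom also called 0 lower, and 1 was lower at an unadjusted p under 0.05. Sox6, a repressor of embryonic globin genes, rose by 3.77 (edgeR adjusted p = 0.000526), the stem cell factor receptor gene Kit by 0.82, and Erfe, the hormone that precursors send to the liver to raise iron supply, by 1.62 on the log2 scale. Erfe had 13, 8 and 8 counts in WT libraries and, like Ackr1 and Trim58 below, reached 10 counts in only 1 of them, so these 3 fold changes are a description. All 3 passed the filter through the KO libraries, and the counts of genes that rose in their lists include them. Gata2 rose by 1.34. The cofactor gene Ldb1 and the transcription factor genes Lyl1 and Runx1 had log2 fold changes of -0.09, 0.11 and 0.10 and were not called. Of 17 further membrane and skeleton genes tested, 8 rose and 2 fell, with a median of 0.48. The Duffy receptor gene Ackr1 rose by 2.21 and the nucleoside transporter gene Slc29a1 by 0.58 on the log2 scale, whereas Tmod3 fell by 0.38 and the potassium channel gene Kcnn4 by 0.41. The regulator count of 6 was 2 without KO replicate 2, WT replicate 2 or WT replicate 3 and 3 without WT replicate 1. The membrane count of 8 was 4 without WT replicate 2 and 5 without WT replicate 3, and the count of 2 lower was 1 without KO replicate 2, WT replicate 1 or WT replicate 3 and 0 without WT replicate 2.

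Of 17 further haem and iron genes, 10 rose and 0 fell by edgeR, with a median log2 fold change of 0.51. One of the 10, Abcb6, had 8, 7 and 7 counts in WT libraries and passed the filter through the KO libraries alone. Steap3, which reduces iron taken up with transferrin, rose by 2.57 (SE 0.21, edgeR adjusted p = 0.000394), and the mitochondrial transporters Abcb10 and Tmem14c by 1.21 and 0.81 on the log2 scale. Of 14 genes of late maturation and clearance, 5 rose and 0 fell by edgeR, with a median of 0.21. Hemgn, a nuclear factor of blood precursors, rose by 3.42, Trim58, which acts in loss of the nucleus, by 3.02, the peroxide-removing Prdx2 by 1.11 and the ubiquitin ligase gene Fbxo7 by 0.41 on the log2 scale. The count of 5 was 3 without WT replicate 2 or WT replicate 3. The mitophagy genes Bnip3l and Ulk1 were not called, with log2 fold changes of 0.08 and 0.16. For the haem and the maturation lists the count of lower genes was 0 at an unadjusted p under 0.05 too, and with DESeq2 and limma-voom.

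Markers of other cells moved in both directions beside the members. Over all genes tested, 8.71% were called higher and 6.83% lower. The 4 globin genes summed to 128 to 356 CPM in KO libraries and 32.8 to 48.5 CPM in WT libraries, and 3 of 4 rose. Proliferation genes summed to 2235 to 3415 CPM in KO libraries and 1435 to 1988 CPM in WT libraries, with 6 of 8 higher and KO replicate 4 highest. Of 6 progenitor markers 3 rose, and of 7 megakaryocyte and platelet markers tested 2 rose, with sums of 38.0 to 51.3 CPM in KO libraries and 24.1 to 33.1 CPM in WT libraries. Of 7 mast cell and basophil markers tested 1 rose, and it was Kit. Kit and Gata2 are each counted both among the progenitor markers that rose and among the further regulators. Of 8 B cell markers 2 fell, while 7 were lower at an unadjusted edgeR p under 0.05, and the median log2 fold change of the 8 was -0.93. Neutrophil markers summed to 8697 to 13423 CPM in KO libraries and 14113 to 17533 CPM in WT libraries, with 4 of 8 lower, and monocyte markers to 8739 to 15352 CPM in KO libraries and 6325 to 10032 CPM in WT libraries, with 3 of 6 higher. Red pulp macrophage markers, cells that take up old red cells, had 0 of 7 called either way by edgeR, or past an unadjusted p of 0.05 with edgeR, DESeq2 or limma-voom, with sums of 266 to 770 CPM in KO libraries and 393 to 718 CPM in WT libraries. KO replicate 4, highest in 29 members, had the lowest red pulp macrophage sum and the lowest T cell and B cell sums. The part of these markers in the members' differences was not tested.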

How the data were processed

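Total RNA of 7 libraries (4 KO, 3 WT) was sequenced after NEBNext Ultra library preparation, per the labels' protocols. The deposited table gives raw read counts and FPKM per gene, per the file headers, and the submitters' processing notes name the build GRCm38 (mm10). The authors' own comparison holds log2 fold changes with their p-values, per the file headers. Its sides are coded VPA and VPC there, and its fold changes ran with KO over WT (Spearman 0.999). It was read only as a check: the authors' deposited table has 32 members higher at an adjusted p under 0.05. The aligner, counting tool, strand setting and annotation are not given in the sources used here. Coordinates are those of the table, and 33 of 34 members have the same ones in GENCODE M21.

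Counts were fitted with edgeR 4.0.16 in R 4.3.3 (TMM, filterByExpr defaults, robust quasi-likelihood F-test, genotype as the only term), with Benjamini-Hochberg adjustment over the 15795 genes tested. SE is the log2 fold change divided by the root of F. The script was tested on simulated data. DESeq2 1.42.0, limma 3.58.1, other scalings and filters, FPKM on the log2 scale with 0.1 or 1 added, a replicate block and leaving out libraries were alternatives. Single genes and 1 gene ratio that the rules would name are not reported here. Ratios of 2 genes used log2 counts plus 0.5. Intervals between libraries are 95% and cover counting error only. Nothing states separate animals beyond the word biological replicate, so p-values measure the spread between these libraries. Members, roles, lists and pairs were chosen with earlier results of these data known. Named with values in every library were, in each role, the 4 members with the smallest p and that with the largest. Gfi1b, Epb42, Tmod1, Alas2 and Trim10 were added after their values were seen, as were Ldb1, Lyl1, Runx1, Bnip3l and Ulk1, and Kcnn4 as 1 of the 2 further genes that fell.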

Additional observations from a re-analysis of the deposited data

Results flagged for a closer look

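Gypc was the only one of the 34 members in which 1 of the 4 KO libraries stood apart by Dixon's criterion. KO replicate 4 had 63.5 CPM and the other 3 KO libraries had 42.1 to 45.1 CPM, a gap of 0.861 of the group's range. WT libraries had 23.2 to 29.8 CPM. With 34 members looked at, chance alone would flag about 1 in 20.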

How the results depend on the processing

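The count of members called higher in KO stayed between 30 and 32 under all alternatives, and 0 were called lower. It was 31 with the replicate block, without KO replicate 2 and without WT replicate 2, and 30 without WT replicate 3, through Nfe2 and, without WT replicate 3, also Gypc. Over all genes 2455 were called, 3870 with limma-voom (1840 lower, against 1079), 1599 without both KO replicate 4 and WT replicate 1 (902 higher, 697 lower) and 1050 to 2553 without single libraries (639 to 1415 higher, 411 to 1138 lower); the cause was not tested. Without single libraries the further regulators had 2 to 6 genes higher and 0 to 1 lower, the further membrane genes 4 to 9 higher and 0 to 2 lower, and the maturation genes 3 to 6 higher; without both libraries the further regulators had 3 higher and the membrane genes 1 lower. With limma on log2(FPKM + 1) the members' median was 1.97, against 3.06, and 7 low-level members moved by over 1.5 times (Sptb, Ank1, Epb42, Add2, Tmod1, Dmtn and Trim10). The fold changes near 0 changed sign: Epb41 was -0.0062 with limma-voom, -0.0161 with upper-quartile scaling, -0.0605 with the replicate block, -0.0806 without both libraries and -0.0558 to 0.0609 without single ones. Slc25a37 was -0.0213 with the block and -0.0064 to 0.171 without single libraries. The ratio differences ran from -0.17 to 0.0544 for Slc25a37 to Slc25a28 and from -0.179 to 0.155 for Car2 to Car1. With a library left out, 0 of 8 gene ratios could pass the threshold, since fewer libraries allow no small enough p. Same-numbered KO and WT libraries shared little of their deviation from the group means (correlations of -0.05, 0.03 and 0.16). Low correlations between so few libraries do not exclude a pairing by number. The replicate block called 2119 genes, and Nfe2 then had a log2 fold change of 0.55 and an edgeR adjusted p of 0.052. Depth limits Tmod1 most.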
